A study of Rattus norvegicus with 6 samples.

Results

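The NRF2, glutathione and thioredoxin genes are the liver's antioxidant and electrophile defence, and 34 of them were examined here in rats given a flame retardant. They were chosen by name and by their known roles, with earlier results of these arrays known. All array probes whose RefSeq transcript belongs to one of these genes were taken, and each gene was represented by its brightest probe. Probes were found for 33 of the 34 genes, 58 probes in all, and 32 genes were bright enough to be tested. All genes, below, means the 27642 names tested on the array, of which 10982 are gene symbols and the rest transcript or probe names of the array's design. No probe matched Pgd, a dehydrogenase of the pentose phosphate pathway, and the cystine carrier gene Slc7a11 was too dim for the test.

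The flame retardant was tris(2-chloroethyl) phosphate (TCEP), an organophosphate that carries chlorine. Animals of the TCEP group received 400 mg/kg/day, and the others had received corn oil alone. Each group held 3 male Sprague-Dawley rats (Crl:CD(SD), an outbred stock) bought at 5 weeks of age and kept on a basal diet, with 1 liver array per animal. The treatment protocol states 9 weeks of dosing, whereas the design text places the measurement at 28 days. Total RNA was labelled with a single dye, so each value is one probe's fluorescence, given here as a relative signal: the processed signal divided by the 75th percentile of its array. Relative signals compare samples for one probe and do not rank one gene against another.

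NRF2, the product of Nfe2l2, is a transcription factor that KEAP1 holds in the cytoplasm and delivers for degradation. Oxidants and electrophiles modify cysteines of KEAP1, and the NRF2 that is then spared binds antioxidant response elements with small MAF proteins. Its known targets make glutathione, regenerate thioredoxin, supply NADPH and reduce quinones. Hepatocytes hold much glutathione and use it to conjugate reactive metabolites, which makes these genes a usual readout in toxicology of the liver.

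The antioxidant response element has the core TGACNNNGC. The promoters that carry it within the 250 bases before the start are shown to place the genes whose values follow. Elements further from the start were not searched for. The search covered the 250 bases before each start in RefSeq's promoter windows of assembly GRCr8, on both strands. It found the core in 6 of 33 windows of 30 genes, against 10.1% of all 33469 windows. The stricter form TGACTCAGC, which is one case of the same core, stood in the windows of Prdx1 and Me1 and in 0.376% of all windows. Each sequence below is read 5′ to 3′ on the strand that shows the core, which is in capitals. The windows are chr5:135383751-135383799 (minus strand) for Prdx1, chr8:96540383-96540431 (minus strand) for Me1, chr2:213031943-213031991 (minus strand) for Gclm, chr6:101230034-101230066 (plus strand) for Gpx2, chr7:22755954-22756002 (plus strand) for Txnrd1 and chr1:50050175-50050223 (plus strand) for Sod2.
Prdx1: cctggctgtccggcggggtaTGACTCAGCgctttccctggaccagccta
Me1: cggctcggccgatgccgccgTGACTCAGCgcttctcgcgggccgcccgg
Gclm: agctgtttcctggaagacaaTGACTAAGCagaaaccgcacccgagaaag
Gpx2: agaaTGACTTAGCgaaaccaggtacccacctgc
Txnrd1: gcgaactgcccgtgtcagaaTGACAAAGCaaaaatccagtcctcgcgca
Sod2: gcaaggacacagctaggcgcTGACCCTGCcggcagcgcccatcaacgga
The edge of the core nearer to the start lay 127 bases before it in Prdx1, 164 in Gclm, 5 in Gpx2, 70 in Txnrd1 and 27 in Sod2. In each of these the core was on the opposite strand to the gene. In Me1 the core lay on the gene's own strand, with its nearer edge 159 bases before the start. A match of these letters is a description of the promoter and shows no binding.

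Mgst2, Tkt, Me1 and Prdx1 had the clearest higher means in TCEP livers, by 1.36-fold to 1.68-fold, and Gpx1 the clearest lower one, but none passed the test. In limma's fit over all genes, 0 of 32 passed an adjusted p of 0.05 in either direction, as did 0% of all genes, and the smallest adjusted p among them was 0.295, for Mgst2. At an unadjusted p under 0.05, 4 were higher with TCEP (Mgst2, Prdx1, Tkt and Me1), against 5.01% of all genes, and 1 was lower (Gpx1), against 4.19% of all genes. In 10 of 32 genes, or 31.2%, every TCEP animal exceeded every corn oil animal (Mgst2, Tkt, Me1, Prdx1, Prdx2, Cbr1, Blvrb, Cat, Keap1 and Sod1), against 10.3% of all genes. In 0 of 32 was every TCEP animal below every corn oil animal, against 7.06% of all genes. The median log2 difference, TCEP minus corn oil, was 0.12 over the 32 genes and 0.00 over all genes, and 22 of 32 means were higher with TCEP, or 68.8%, against 50.9% of all genes. The genes were chosen with results of these arrays known, so these shares carry no test. Over the 10982 genes with a symbol, chosen as a background after the data were seen, the shares were 10.6% apart as higher and 6.09% as lower, 4.82% higher and 3.34% lower at an unadjusted p under 0.05, and 53.2% with higher means. For 24 of the 32, the 95% interval of the difference lay within 2-fold in either direction.

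**Figure D1:**
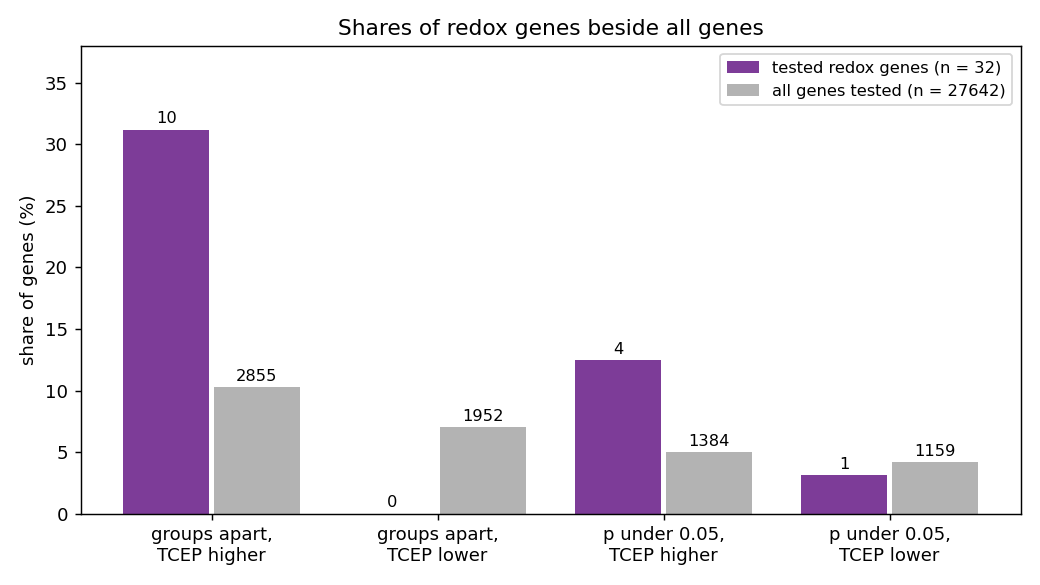
Share of genes in percent (vertical axis, from 0) whose TCEP and corn oil values did not overlap or whose unadjusted limma p was under 0.05, split by direction, for the 32 tested redox genes (purple) and all 27642 genes (grey), with counts above the bars. The redox genes reach 31.2% for groups apart with TCEP higher, against 10.3% of all genes.

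One corn oil array moved with several of these results. Corn oil replicate 2 was scanned on a later day than the other arrays and lay alone on its slide. It had 57.2% of probes well above background, against 61.6% to 64.4% on the other arrays, and 40 of the 64 outlier-flagged spots. It held the lowest value of 12 of the 32 genes, or 37.5%, against 21.1% of all genes. The median deviation of the 32 genes from their corn oil means was -0.08 log2 units in this array, against 0.10 in corn oil replicate 1 and 0.08 in corn oil replicate 3, and its part in the results was not tested. Within the first scan day, without this array, 11 genes lay apart as higher, or 34.4%, against 15.4% of all genes with these smaller groups. Another 4 (Aox1, Gclc, Gclm and Txnrd1) then lay apart as lower, against 12.6% of all genes. With each array left out in turn, the median log2 difference of the 32 genes ran from 0.08 to 0.13. The lowest median came without corn oil replicate 3 and the highest without corn oil replicate 1. All TCEP arrays, and none of the corn oil arrays, were on 1 slide, so treatment and slide cannot be told apart. Hepatocyte markers (Alb, Ttr, Tf and others, 10 of 10) were well above background on all arrays, with a summed relative signal of 5452 to 6176 in TCEP livers and 6019 to 6437 in corn oil livers and 8 of 10 means lower in TCEP. In whole liver, fewer cells of a type and less RNA per cell cannot be told apart.

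**Figure D2:**
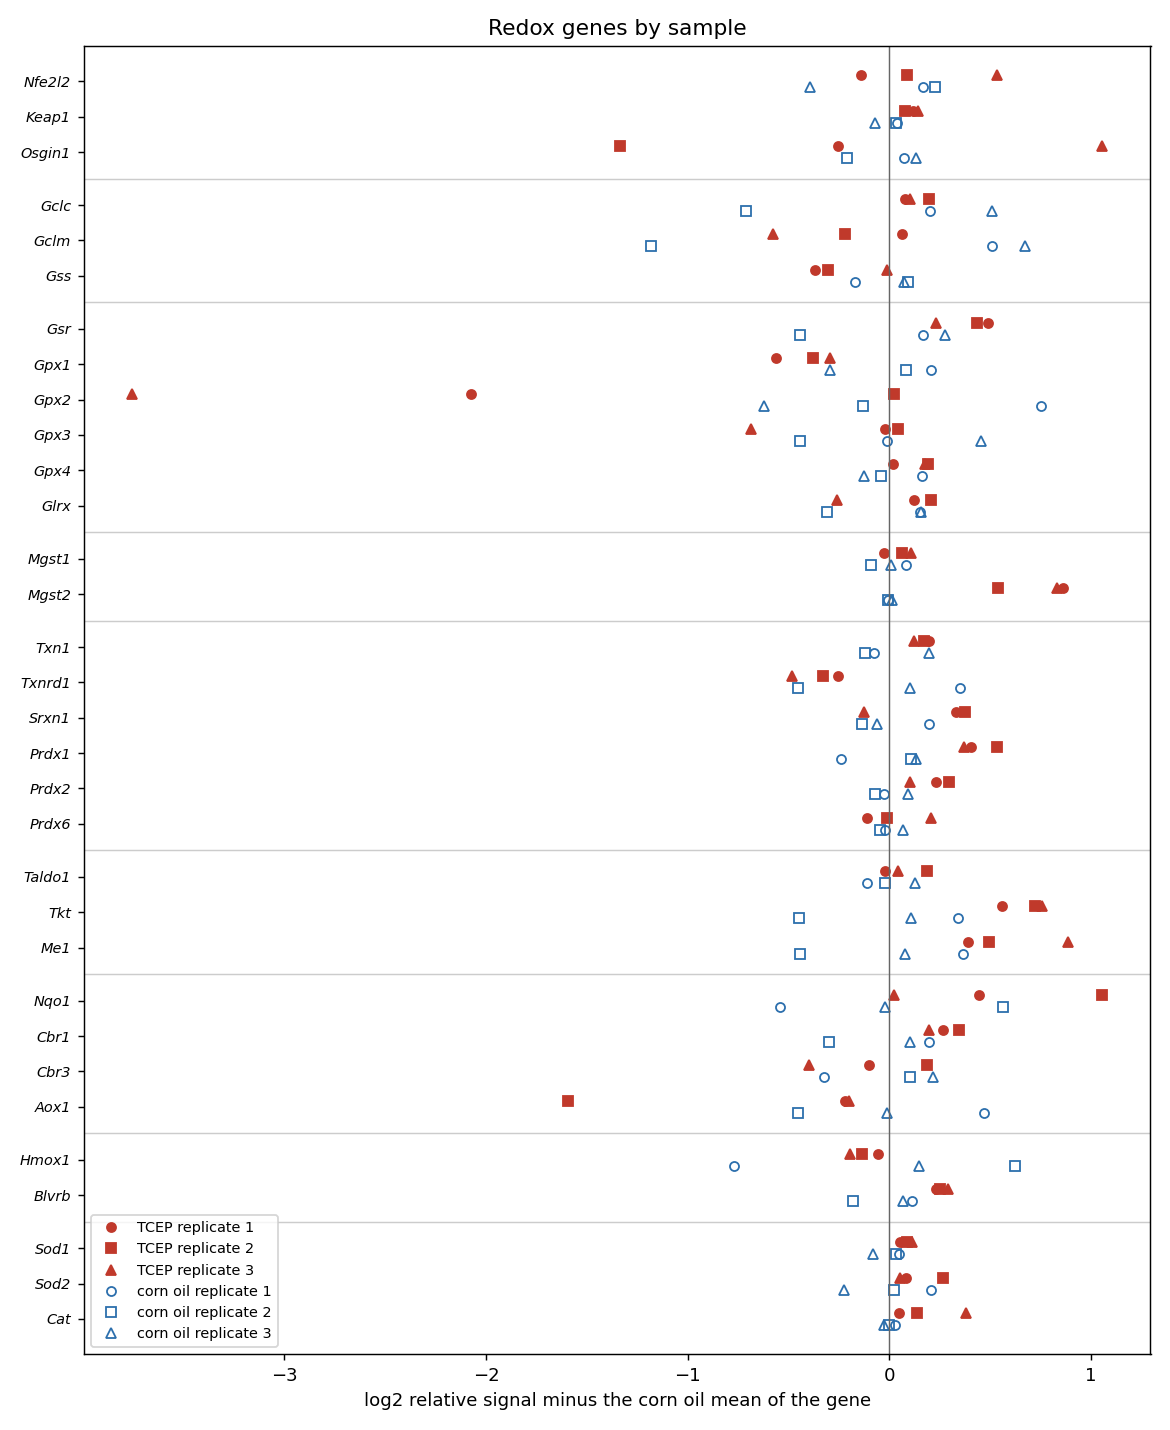
Log2 relative signal of each of the 32 tested genes in every sample minus the gene's corn oil mean (horizontal axis, log2 units), with genes in rows by role. Filled red symbols are TCEP and open blue symbols corn oil, each as replicate 1 (circle), 2 (square) and 3 (triangle). Mgst2, Tkt, Me1 and Prdx1 have all red symbols right of the blue ones, and Gpx2, Osgin1 and Aox1 have the widest spread within TCEP.

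The sensor and its regulators had means close to the corn oil level. Nfe2l2, which encodes NRF2 itself, had relative signals of 13.7, 16.1 and 21.9 in TCEP livers, against 16.98, 17.7 and 11.5 in corn oil livers, and the groups overlapped. Its log2 difference was 0.16 ± 0.24 (SE), and -0.04 without corn oil replicate 3. Keap1, the gene of the NRF2 inhibitor, had 1.93, 1.88 and 1.96 in TCEP livers, against 1.83, 1.82 and 1.70 in corn oil livers. Its groups did not overlap, yet the difference of 0.11 ± 0.09 (SE) was small and its adjusted p in limma was 0.709. Osgin1, a growth inhibitor known as an NRF2 target, had 11.7, 5.52 and 28.9 in TCEP livers, against 14.7, 12.1 and 15.3 in corn oil livers. The TCEP animals thus spanned the whole corn oil range and beyond on both sides, with a log2 SD of 1.20 in TCEP and 0.18 in corn oil (3 animals each). The mean difference of Osgin1 was -0.18 ± 0.57 (SE), and 0.40 without TCEP replicate 2.

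Glutathione synthesis showed no difference beyond the spread between animals. Gclc, the catalytic subunit of the rate-limiting ligase, had relative signals of 34.3, 37.3 and 34.9 in TCEP livers, against 37.4, 19.9 and 46.3 in corn oil livers. The TCEP values lay between the corn oil extremes, and the log2 difference of 0.13 ± 0.31 (SE) was -0.23 without corn oil replicate 2. Gclm, the modifier subunit of the same ligase, had 0.0824, 0.0677 and 0.0528 in TCEP livers, against 0.112, 0.0348 and 0.126 in corn oil livers. It was dim, well above background on 3 of 3 TCEP and 2 of 3 corn oil arrays, and its difference of -0.24 ± 0.50 (SE) was -0.83 with corn oil replicate 2 left out and 0.09 with replicate 3 of that group left out. For both ligase subunits corn oil replicate 2 was the lowest of the 6 samples. Gss, which adds glycine in the second step, had 4.03, 4.22 and 5.16 in TCEP livers, against 4.64, 5.55 and 5.48 in corn oil livers, a log2 difference of -0.23 ± 0.14 (SE). Slc7a11, the carrier that imports cystine for the pathway, was well above background on 2 of 3 TCEP and 1 of 3 corn oil arrays. Its brightest probe gave 0.0376, 0.0279 and 0.112 in TCEP livers, against 0.0155, 0.0122 and 0.0987 in corn oil livers, too dim for a fold.

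The glutathione peroxidases and their reductase had means on both sides of the corn oil level. Gpx1, the main cytosolic peroxidase, a selenium enzyme, had relative signals of 228, 258 and 274 in TCEP livers, against 388, 357 and 274 in corn oil livers. The highest TCEP value and the lowest corn oil value nearly coincided, and the fold of corn oil over TCEP was 1.33 (log2 difference -0.41 ± 0.16, SE). Its unadjusted p in limma was 0.0395 and its adjusted p 0.532, and a second probe of the gene gave -0.39. Gpx2, a peroxidase best known from the gut epithelium, had 0.204, 0.877 and 0.0638 in TCEP livers, against 1.45, 0.787 and 0.559 in corn oil livers. TCEP replicates 1 and 3 lay below every corn oil value, while TCEP replicate 2 lay among them, with a log2 SD of 1.89 in TCEP and 0.70 in corn oil (3 animals each). The Gpx2 difference of -1.93 ± 0.94 (SE) was the largest of the 32 in size and had an adjusted p of 0.583 in limma. It was -2.92 without TCEP replicate 2 and -1.03 without TCEP replicate 3, and all 3 probes had lower means (-1.93, -1.91 and -1.30). The probes at -1.91 and -1.30 were well above background on only 2 of 3 TCEP arrays. The difference of the brightest Gpx2 probe was -1.32 with normexp background correction. Bile duct epithelial markers were measured for 7 of 8 genes and summed to 1.94 to 2.81 in TCEP livers and 1.72 to 2.22 in corn oil livers. They differed in direction, with Epcam (0.52) and Spp1 (1.04) apart as higher, against 10.3% of all genes. Tff3 (-1.34) and Cldn4 (-0.30) were apart as lower, against 7.06% of all genes. Krt19 (0.50), Krt7 (-0.27) and Cftr (0.01) overlapped between the groups. The part of the bile duct markers in the Gpx2 spread was not tested.

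Gsr, the reductase that restores oxidised glutathione, had 1.31, 1.26 and 1.09 in TCEP livers, against 1.04, 0.686 and 1.13 in corn oil livers. The groups overlapped, and the difference of 0.38 ± 0.21 (SE) was 0.16 without corn oil replicate 2. Gpx4, which reduces lipid hydroperoxides in membranes, had a log2 difference of 0.13 ± 0.11 (SE), and its 3 probes gave 0.11 to 0.14. Gpx3, the plasma peroxidase, had -0.22 ± 0.29 (SE), which was 0.01 without TCEP replicate 3. Glrx, a glutaredoxin that frees proteins of bound glutathione, had 0.02 ± 0.19 (SE).

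Mgst2 stood furthest from its replicate spread among the 32 genes. It encodes a microsomal glutathione transferase that also makes leukotriene C4. Its relative signals were 39.4, 31.5 and 38.6 in TCEP livers, against 21.6, 21.6 and 21.9 in corn oil livers. Each TCEP value lay well above a tight corn oil group, a mean fold of 1.68 (log2 difference 0.74 ± 0.12, SE; 95% interval 0.46 to 1.02; 3 animals each). The unadjusted p in limma was 0.000574 and the adjusted p 0.295, so the difference did not pass over all genes. The adjusted p ran from 0.152 to 0.819 over the alternative settings, and the log2 difference from 0.65 to 0.85. Its relative Mgst1, an abundant transferase of the endoplasmic reticulum and mitochondria, had 207, 219 and 226 in TCEP livers, against 222, 197 and 211 in corn oil livers, a log2 difference of 0.05 ± 0.10 (SE). Whether the differences of both transferases differ from each other was not tested.

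**Figure D3:**
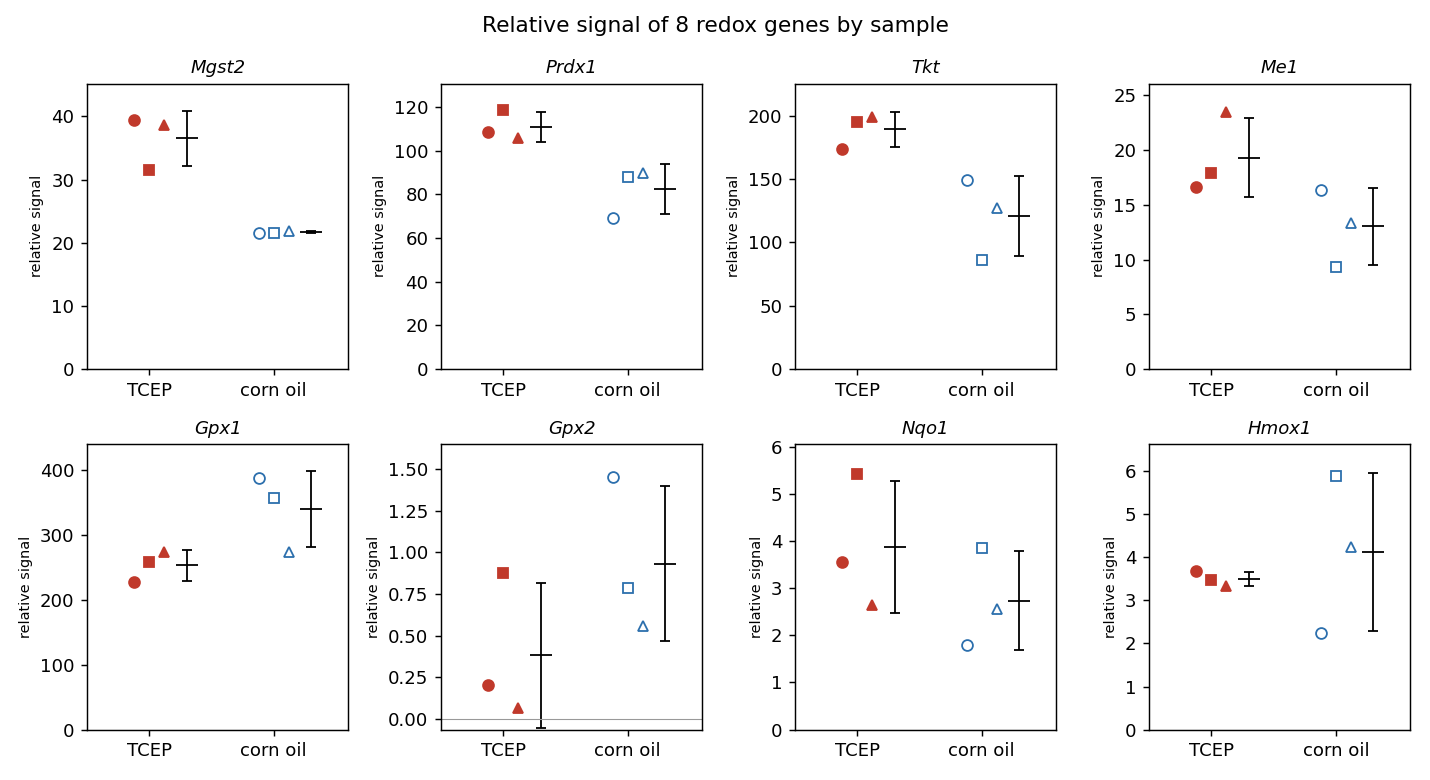
Relative signal (vertical axis, processed signal over the array's 75th percentile, linear) of 8 genes in TCEP (filled red, left) and corn oil (open blue, right), with circle, square and triangle for replicates 1, 2 and 3 and black marks for the mean ± SD of 3 animals. Mgst2 is tight in corn oil at 21.6 to 21.9 and lies at 31.5 to 39.4 in TCEP, whereas Nqo1 and Hmox1 overlap between the groups.

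In the thioredoxin system, the 2-Cys peroxiredoxins Prdx1 and Prdx2 had groups that did not overlap, while thioredoxin and its reductase did not separate. Prdx1, which reduces hydrogen peroxide with electrons from thioredoxin, had relative signals of 108, 119 and 106 in TCEP livers, against 69.2, 88.2 and 89.6 in corn oil livers. Its fold was 1.36 (log2 difference 0.44 ± 0.13, SE), with an unadjusted p of 0.0151 and an adjusted p of 0.492 in limma. Prdx2, its close relative, abundant in red cells, had 22.4, 23.5 and 20.6 in TCEP livers, against 18.8, 18.2 and 20.4 in corn oil livers, a log2 difference of 0.21 ± 0.10 (SE) that was 0.13 with quantile normalization. Red cell markers were measured for 7 of 12 genes and summed to 811 to 1250 in TCEP livers and 748 to 1159 in corn oil livers, with 6 of 7 means lower in TCEP, and their part in the Prdx2 values was not tested. Prdx6, which acts on phospholipid hydroperoxides, had 0.03 ± 0.11 (SE). Txn1, thioredoxin itself, had 132, 130 and 126 in TCEP livers, against 109, 106 and 132 in corn oil livers. The TCEP animals were alike and one corn oil animal reached their level, which left a log2 difference of 0.17 ± 0.11 (SE).

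Srxn1, the sulfiredoxin that rescues overoxidised peroxiredoxins, had 5.57, 5.75 and 4.07 in TCEP livers, against 5.08, 4.03 and 4.25 in corn oil livers. The groups overlapped, with a difference of 0.19 ± 0.17 (SE), and its second, dimmer probe gave -0.06. Txnrd1, the cytosolic thioredoxin reductase, had 2.35, 2.23 and 2.01 in TCEP livers, against 3.58, 2.05 and 3.02 in corn oil livers by its brightest probe, a log2 difference of -0.36 ± 0.21 (SE). It was -0.58 with corn oil replicate 2 left out and -0.18 with replicate 1 of that group left out. The other 3 probes of the same transcript gave 0.07, 0.04 and 0.01, and the mean over its probes gave -0.06. The lower Txnrd1 mean thus rested on 1 of 4 probes, and the next in brightness, with nearly the same signal, gave the 0.01.

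**Figure D4:**
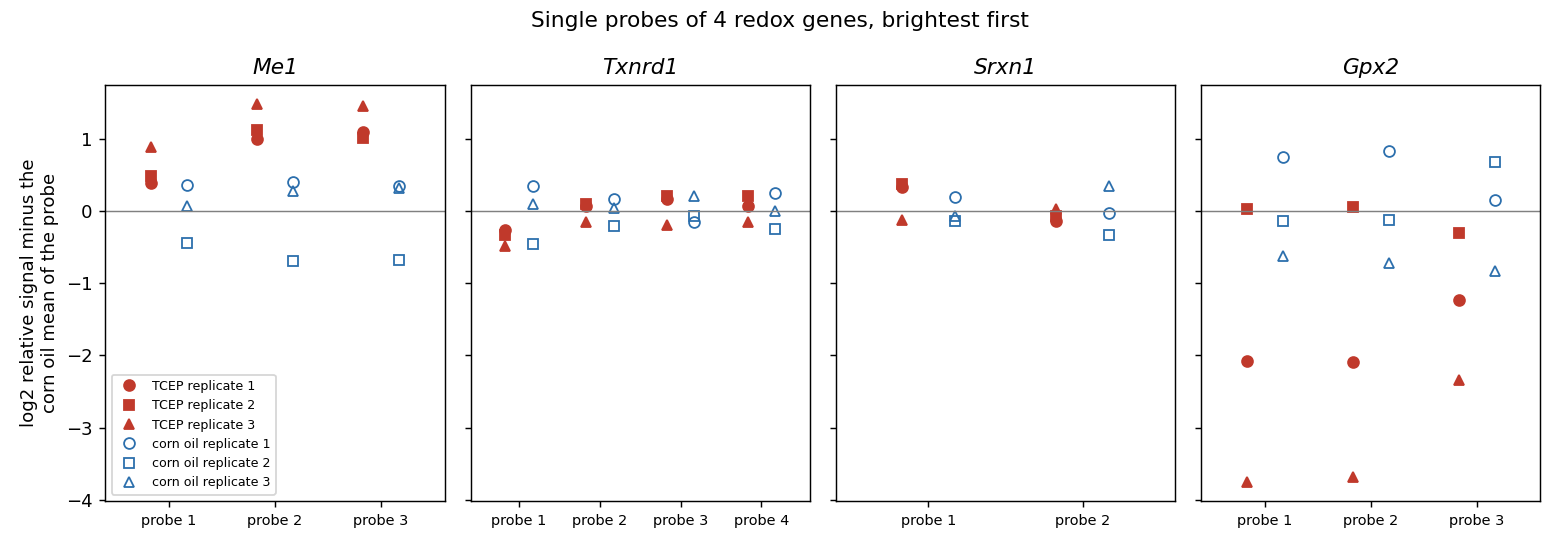
Log2 relative signal of single probes minus the probe's corn oil mean (vertical axis, log2 units) for Me1, Txnrd1, Srxn1 and Gpx2, probes ordered from brightest to dimmest along the horizontal axis. Filled red symbols are TCEP and open blue symbols corn oil, as replicate 1 (circle), 2 (square) and 3 (triangle). The Me1 probes all have TCEP above corn oil, by 0.59, 1.20 and 1.19, while the brightest Txnrd1 probe, at -0.36, lies apart from the other 3.

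Genes that supply NADPH or feed its pathway had higher means in 3 of 3 measured cases. Tkt, transketolase of the non-oxidative pentose phosphate branch, had relative signals of 174, 195 and 199 in TCEP livers, against 149, 86.5 and 127 in corn oil livers. The groups did not overlap, with a fold of 1.60 (log2 difference 0.68 ± 0.21, SE), an unadjusted p of 0.0166 and an adjusted p of 0.502 in limma. Me1, cytosolic malic enzyme, which makes NADPH and is also a lipogenic gene, had 16.7, 17.9 and 23.4 in TCEP livers, against 16.3, 9.35 and 13.4 in corn oil livers. Its brightest probe gave a fold of 1.51 (log2 difference 0.59 ± 0.24, SE) with an adjusted p of 0.537 in limma.

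The dimmer Me1 probes gave larger differences than the brightest one. The second had 9.98, 10.8 and 14.0 in TCEP livers, against 6.60, 3.10 and 6.03 in corn oil livers, and the third had 8.37, 7.91 and 10.8 in TCEP livers, against 4.99, 2.45 and 4.89 in corn oil livers. They gave log2 differences of 1.20 and 1.19, and the mean over the probes gave 1.00. Corn oil replicate 2 was the lowest sample for Tkt and for every Me1 probe. Without it the log2 difference was 0.46 for Tkt and 0.37 for the brightest Me1 probe. Taldo1, transaldolase of the same branch as Tkt, had 24.6, 28.5 and 25.8 in TCEP livers, against 23.2, 24.7 and 27.3 in corn oil livers, a difference of 0.07 ± 0.11 (SE).

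The quinone and carbonyl reductases included no gene that passed. Nqo1, the quinone reductase that serves as a standard NRF2 readout, had relative signals of 3.55, 5.41 and 2.65 in TCEP livers, against 1.79, 3.85 and 2.57 in corn oil livers. The groups overlapped through corn oil replicate 2, which lay above 2 of the 3 TCEP animals. The log2 difference was 0.51 ± 0.36 (SE; 95% interval -0.36 to 1.38), 0.79 without corn oil replicate 2 and 0.24 without TCEP replicate 2, and the second probe gave 0.38. The interval includes 0 and a fold above 2. Cbr1, a carbonyl reductase, had 5.74, 6.06 and 5.48 in TCEP livers, against 5.47, 3.88 and 5.13 in corn oil livers. The lowest TCEP value barely exceeded the highest corn oil value, and the log2 difference of 0.27 ± 0.15 (SE) was 0.12 without corn oil replicate 2. Cbr3, its inducible relative, had -0.10 ± 0.20 (SE). Aox1, an aldehyde oxidase that also oxidises nitrogen heterocycles, had 202, 77.9 and 205 in TCEP livers, against 325, 172 and 233 in corn oil livers. TCEP replicate 2 was the lowest sample and the groups overlapped, with a difference of -0.67 ± 0.43 (SE) that was -0.21 without that animal. In TCEP replicate 2, a pattern picked out after the values were seen, Nqo1 and Gpx2 had their highest values of the TCEP group, and Aox1 and Osgin1 their lowest.

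The heme breakdown genes had means on opposite sides of the corn oil level. Hmox1, the inducible heme oxygenase, had relative signals of 3.68, 3.47 and 3.34 in TCEP livers, against 2.24, 5.88 and 4.23 in corn oil livers. The TCEP values sat inside the corn oil range, with a log2 SD of 0.07 in TCEP and 0.71 in corn oil (3 animals each), and the difference of -0.13 ± 0.34 (SE) was 0.18 without corn oil replicate 2. Macrophages are known to express Hmox1. All 12 of 12 macrophage markers (Cd163, Marco, Clec4f and others) were measured, and their summed relative signal was 156 to 189 in TCEP livers and 115 to 257 in corn oil livers. Corn oil replicate 1 was lowest in both Hmox1 and the macrophage sum, but Hmox1 was highest in corn oil replicate 2 and the sum in replicate 3, and the part of the macrophages in the Hmox1 spread was not tested. Blvrb, a reductase of biliverdin and flavins that red cells carry in quantity, had 58.2, 59.1 and 60.7 in TCEP livers, against 53.6, 43.8 and 51.9 in corn oil livers. Its groups did not overlap, with a log2 difference of 0.26 ± 0.11 (SE) and an adjusted p of 0.544 in limma. That difference was 0.17 without corn oil replicate 2 and 0.15 with quantile normalization, and the 3 Blvrb probes gave 0.23 to 0.29.

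Enzymes that remove superoxide and peroxide directly differed little. Cat, the peroxisomal catalase, had relative signals of 28.2, 30.0 and 35.4 in TCEP livers, against 27.8, 27.2 and 26.8 in corn oil livers. Its groups did not overlap, and the difference of 0.19 ± 0.11 (SE) was 0.09 without TCEP replicate 3. Sod1, the cytosolic copper-zinc superoxide dismutase, had 455, 466 and 475 in TCEP livers, against 453, 449 and 415 in corn oil livers. These groups too were apart by a narrow margin, with a difference of 0.09 ± 0.09 (SE; 95% interval -0.13 to 0.30). Sod2, the mitochondrial manganese enzyme, had 0.13 ± 0.14 (SE). With quantile normalization the groups of Cat, Cbr1, Prdx2 and Sod1 overlapped, which left 6 genes apart as higher, or 18.8%, against 9.28% of all genes, and Gpx1 then lay apart as lower.

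**Figure D5:**
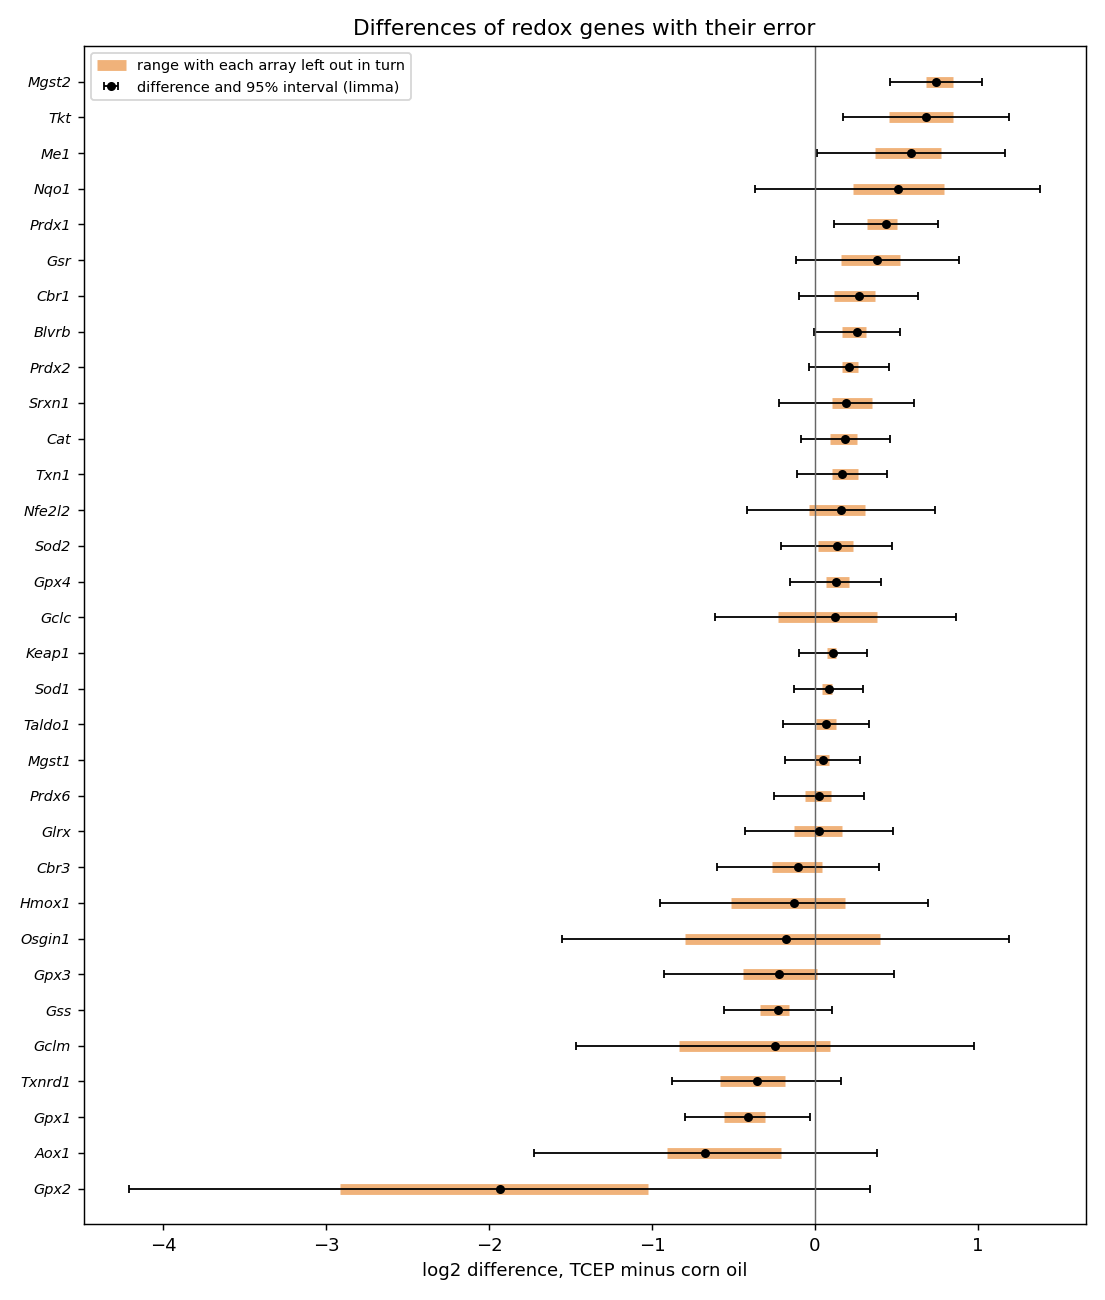
Log2 difference, TCEP minus corn oil, of the 32 tested genes (points, horizontal axis in log2 units) with 95% intervals from limma (black bars), sorted from highest to lowest, and the range of the difference when each array was left out in turn (orange). Mgst2 leads at 0.74 with an interval of 0.46 to 1.02, and Gpx2, at -1.93, has the widest interval.

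The 6 genes with an antioxidant response core in the searched window did not share a direction by their brightest probes. Their log2 differences were 0.59 for Me1, 0.44 for Prdx1, 0.13 for Sod2, -0.24 for Gclm, -0.36 for Txnrd1 and -1.93 for Gpx2. The lower Txnrd1 mean rested on its brightest probe, and the mean over its probes gave -0.06. Gclm was dim, and its direction was not fixed, at -0.83 to 0.09 when single arrays were left out. Gpx2 stayed lower in the same check, at -2.92 to -1.03. Me1 and Prdx1, which hold the stricter core, are among the 10 of 32 genes apart as higher (31.2%, against 10.3% of all genes), and nothing about the core can be read from a pair of genes. Mgst2, Gsr, Prdx6 and Hmox1 had no window in the table used.

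Other genes of the same pathways, from 5 lists chosen by role, gave 0 calls at an adjusted p of 0.05 in limma in either direction. The counts at an unadjusted p under 0.05 stand beside 5.01% higher and 4.19% lower of all genes. Of 17 measured regulators and partners of NRF2, 2 were higher and 0 lower at an unadjusted p under 0.05. These were Nfe2l1, an NRF2 relative that controls proteasome genes, at 0.45 ± 0.13 (SE), and Park7, a redox-sensitive protein known to stabilise NRF2, at 0.32 ± 0.10 (0.21 with quantile normalization). The bright autophagy receptor Sqstm1, which competes for KEAP1, had 0.18 ± 0.11 (SE), which was 0.08 with quantile normalization and 0.05 as the mean over its probes. Of 30 further measured NRF2 targets, 5 were higher and 0 lower by the same measure. The export pump Abcc3 had relative signals of 0.972, 0.940 and 1.08 in TCEP livers, against 0.25, 0.303 and 0.122 in corn oil livers, a log2 difference of 2.25 ± 0.33 (SE). Abcc3 is also a known target of other xenobiotic receptors. The aldehyde reductase Akr7a3 had 1.50 ± 0.57 (SE), which was 0.84 without corn oil replicate 2. Ptgr1, a reductase of oxidised prostaglandins and alkenals, had 0.52 ± 0.14 (SE), and Abcb6, a porphyrin carrier, 0.35 ± 0.12 (SE). The ferritin chains had 0.08 ± 0.10 (SE) for Ftl1 and 0.09 ± 0.11 (SE) for Fth1. Groups were apart as higher for 7 of the 30 targets and as lower for 2, against 10.3% and 7.06% of all genes. The lower ones, named after their values were seen, were the aldo-keto reductase Akr1b8 at -1.22 ± 0.60 (SE) and the lipoprotein lipase Lpl at -0.40 ± 0.16 (SE). The Akr1b8 difference was -0.49 without TCEP replicate 3, and that of Lpl was -0.24 without corn oil replicate 3.

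Of 31 measured genes of glutathione and sulfur amino acid turnover, 1 was higher and 0 lower at an unadjusted p under 0.05, a smaller share than that of all genes. It was Slc25a39, the mitochondrial glutathione importer, at 0.31 ± 0.12 (SE). The bright methionine cycle genes Mat1a and Ahcy had 0.07 ± 0.11 and -0.17 ± 0.15 (SE). Of 31 other thioredoxin, peroxide and selenium genes, 1 was higher and 0 lower, namely Ccs, the copper chaperone of superoxide dismutase, at 0.39 ± 0.15 (SE), again a smaller share than that of all genes. Prdx5, a peroxiredoxin of mitochondria and peroxisomes, and the selenium carrier Selenop had 0.09 ± 0.15 and 0.06 ± 0.10 (SE). Of 14 other NADPH genes 0 passed in either direction, with Idh2 at 0.06 ± 0.29 (SE; -0.27 without corn oil replicate 2) and Aldh1l1 at 0.31 ± 0.17 (SE). The medians of the 5 lists, in the order given, were 0.07, 0.17, 0.07, 0.04 and 0.12, beside 0.00 over all genes. With an array left out they ran from 0.02 to 0.13 for the regulators, 0.05 to 0.19 for the targets, 0.04 to 0.12 for glutathione turnover, 0.02 to 0.07 for the thioredoxin genes and 0.06 to 0.16 for the NADPH genes. The lowest values came without corn oil replicate 2 for the targets and the NADPH genes, and without TCEP replicate 2 for the other lists.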

How the data were processed

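Per the labels' protocols, total liver RNA was labelled with Cy3 and hybridised to 1-colour arrays. Per the file headers, the authors extracted spot intensities with Feature Extraction, version 10.7.1.1, and the submitters' processing notes give it as 10.7. The deposited value table matched the same processed signals divided by a constant near each array's 75th percentile, a linear ratio with no centring by gene. Its column medians were 0.0953 to 0.0972 in TCEP and 0.0962 to 0.1035 in corn oil.

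Here, processed signals were divided by the 75th percentile of the 61657 non-control probes on their array and taken to log2. The 64 spots with outlier flags were set to missing. Probes well above background on all arrays of a group were kept (37043), and per array 57.2% to 64.4% of probes were well above background. RefSeq (GRCr8) named 27460 probes through unversioned accessions, the other 34197 kept the design's name, and each name took its brightest kept probe. Groups were compared by limma 3.58.1 under R 4.3.3 (lmFit, then eBayes; two-sided). P-values were adjusted over all genes by Benjamini and Hochberg's method at 0.05, and the fit was tested on simulated data. The 3 arrays per group limit the precision, with a median standard error of 0.145 for a log2 difference. The labels give 3 animals a group, and each replicate was taken as 1 animal.

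The genes and lists were chosen with earlier results of these data known. The text names every gene of the set and, from each other list, the 2 brightest genes and up to 4 with the largest differences among those with groups apart and an unadjusted p under 0.05. Alternatives were quantile normalization, median centring, normexp with offset 50 on the median spot signal, the deposited table, other filters and probe rules, eBayes with trend and robust, slide and replicate blocks, outliers kept and each array left out.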

Additional observations from a re-analysis of the deposited data

How the results depend on the processing

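In limma, 0 genes of the array and 0 of the 32 redox genes passed an adjusted p of 0.05 under any of 17 alternatives, and the smallest adjusted p over all genes ran from 0.058 to 0.712. Of 543 recomputed differences of the redox genes, 523 kept their direction, and 21 genes kept it throughout. The difference moved by over 1.5 times or changed sign for 25 genes when an array was left out and for 20 in another alternative, and for neither in Gpx1, Gss, Mgst2, Prdx1 and Tkt. The 5 genes at an unadjusted p under 0.05 became 3 with no filter on dim probes, 9 with normexp and 3 with quantile normalization, and 3 to 6 when each array was left out (3 without any one TCEP replicate). The 10 genes with groups apart became 7 with quantile normalization and 13 with normexp, and 11 to 15 with an array left out. Over all genes the shares apart as higher and as lower were 9.28% and 7.11% with quantile normalization, 10.8% and 7.44% with normexp, and up to 17.2% and 15.1% with an array left out. The median difference ran from 0.06 with quantile normalization to 0.18 with median centring, which moved the median of all genes to 0.06.

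Signs turned with quantile normalization for Glrx (-0.033), Mgst1 (-0.026), Prdx6 (-0.041), Taldo1 (-0.0049), Prdx5 (-0.0010), Selenop (-0.012) and Idh2 (-0.025), with normexp for Mgst1 (-0.0093), and with the mean over probes for Idh2 (-0.043). With each array left out, log2 differences ran from -0.037 to 0.31 for Nfe2l2, -0.80 to 0.40 for Osgin1, -0.23 to 0.38 for Gclc, -0.83 to 0.092 for Gclm, -0.44 to 0.013 for Gpx3, -0.13 to 0.17 for Glrx, -0.061 to 0.10 for Prdx6, -0.27 to 0.042 for Cbr3, -0.51 to 0.18 for Hmox1, -0.024 to 0.12 for Mat1a, -0.013 to 0.25 for Prdx5 and -0.27 to 0.25 for Idh2. The cause of these changes was not tested.

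Same-numbered arrays of the groups deviated together at r = -0.05, -0.16 and -0.02, and other pairs of arrays at -0.07 to 0.12. With 3 arrays a group, these values cannot decide whether same-numbered animals were paired. With the replicate block, 4 genes had an unadjusted p under 0.05 and 0 passed. Dim signal kept Slc7a11 out of the test and left Gclm well above background on 2 of 3 corn oil arrays.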
